A study of Mus musculus with 6 samples.

Results

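The mouse genes of the ephrin, semaphorin, netrin and slit guidance systems were examined for H3K27me3 in granulosa cells, the steroid-producing cells that surround the oocyte. Members were chosen by gene symbol alone: Epha, Ephb, Efna, Efnb, Sema, Plxn, Nrp1, Nrp2, Slit1 to Slit3, Robo1 to Robo4, Ntn, Ntng, Dcc, Neo1, Unc5, Rgma and Rgmb. Of 21900 protein-coding genes, 76 met this rule. Among these, Unc5cl and Unc50 match by their letters and are not netrin receptors, and both stood in no list.

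The study profiled 6 samples of granulosa cells from wild-type C57BL/6J mice aged 8-9 weeks, 3 without any agent (control) and 3 given 25 nM dihydrotestosterone (DHT, a non-aromatisable androgen) for 24 h. All were immunoprecipitated with an antibody to H3K27me3, the trimethylated form of lysine 27 of histone H3. The cells were primary cultures pooled from many animals, and the values used here were 1 list of gene symbols per group for each kind of region. A gene was therefore either listed or not listed. With no value per sample, sequencing depth is unknown, and the control and DHT lists are compared without any replicate error. A lower level of the mark and a less sensitive call in the DHT pool cannot be told apart in such lists. Whether a gene is expressed cannot be read from them either. Of 7 granulosa cell markers, 3 had a gene body peak: Fshr in both conditions, Cyp19a1 in control alone and Nr5a2 after DHT alone. Of 3 immune markers 1 (Ptprc) and of 3 endothelial markers 1 (Pecam1) was in both lists and the others in neither, while none of 3 theca or stroma markers and none of 3 oocyte markers was in either.

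The guidance systems were first described in growing axons and also act in blood vessels and in the ovary. Ephrins are membrane-bound ligands that signal through Eph receptor tyrosine kinases on the neighbouring cell. Semaphorins bind plexins, and most of the secreted ones use neuropilins as co-receptors. Slits bind roundabout receptors. Netrins bind DCC and neogenin, which attract, and the UNC5 receptors, which repel, and repulsive guidance molecules are ligands of neogenin. H3K27me3 is laid down by EZH2, the methyltransferase of Polycomb repressive complex PRC2, and is found over silent developmental genes.

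In control cells 22 of the 76 guidance genes carried a gene body peak (28.9%, 95% Wilson interval 19.96 to 39.96%), beside 13.0% of all protein-coding genes. After DHT 10 carried one (13.2%, 7.31 to 22.55%), beside 4.76% of all genes. The genes in both lists numbered 8 (10.5%, background 2.89%), those in the control list alone 14 (18.4%, background 10.1%) and those in the DHT list alone 2 (2.63%, background 1.88%). In all, 24 members (31.6%, background 14.9%) had a gene body peak in one condition or the other. The intervals cover counting error only.

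The 8 members listed in both conditions were Robo2 (a slit receptor), Dcc and Unc5d (netrin receptors), Slit3 (a slit), Sema6d and Sema5a (membrane-bound semaphorins), Ntng1 (netrin-G1, a membrane-anchored netrin relative) and Efna5 (ephrin-A5). The 14 listed in control alone were Robo1, the Eph receptors Epha3, Epha4, Epha5, Epha6 and Ephb1, the plexins Plxna4 and Plxnc1, the neuropilin Nrp1, the ligands Slit2, Sema3e and Ntn1, and the netrin receptors Unc5c and Neo1. The 2 listed after DHT alone were Sema5b, a membrane-bound semaphorin, and Nrp2, the neuropilin used by the class 3 semaphorins that bind poorly to Nrp1. Thus the paired neuropilins stood on opposite sides, Nrp1 in the control list alone and Nrp2 in the DHT list alone.

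Guidance genes are long, and a long gene offers more bases for a peak to overlap. The members had a median length of 49.8 kb in the reference annotation, beside 17.1 kb for all protein-coding genes. The control-listed members had a median of 369.6 kb, the DHT-listed members 512.2 kb, the members in both lists 575.4 kb and the members in neither list 26.3 kb. The same order held over all protein-coding genes, with medians of 106.8 kb for the control list, 142.1 kb for the DHT list and 235.7 kb for both. Among members the split by length was complete at the lower end: none of the 42 members under 100 kb was in a gene body list, with an upper Wilson limit of 8.38%, while 8.33% of the 19471 protein-coding genes under 100 kb were. The unmatched share of 8.33% lay just below that upper limit. Summed over the listed shares of their length classes, these 42 would have held 3.60 genes in either list. As a share of 42, that sum lay slightly above the limit. The cut at 100 kb, a class edge, lies just below the shortest listed member, Nrp2 (115.4 kb). Pooling all members below it was therefore not independent of the lists and carries no test. Class by class, the control background share lay within the interval of the members. It was 1.66% under 20 kb (interval 0 to 14.9%) and 10.4% from 20 to 50 kb (0 to 19.4%). From 50 to 100 kb it was 25.4% (0 to 49.0%). Of the 34 members of 100 kb or more, 24 (70.6%) were listed, beside 67.6% of the 2429 protein-coding genes of that length.

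When each member was given the share of all protein-coding genes listed in its own class of length, the sum over members was 26.1 genes for the control list, against the 22 found. For the DHT list the sum was 12.1 against 10, for both lists 9.62 against 8, for control alone 16.5 against 14 and for DHT alone 2.52 against 2. The counts of guidance genes lay below these length-matched counts in every one of the 5 groups, although they lay above the unmatched background in each. The 5 groups overlap, since each list is made up of the genes in both lists and its genes alone. As shares of the 76 members, the length-matched counts lay within the Wilson intervals of the counts found in all 5 groups. In the class from 100 to 200 kb, 5 of 15 members (33.3%, 15.2 to 58.3%) were in the control list, beside 48.2% of all genes of that length, and 2 of 15 (13.3%, 3.74 to 37.9%) were in the DHT list, beside 16.9%. From 200 to 500 kb, 10 of 12 members (83.3%, 55.2 to 95.3%) were control-listed beside 74.6%, and 3 of 12 (25.0%, 8.89 to 53.2%) were DHT-listed beside 35.3%. All 7 members of 500 kb or more were control-listed, beside 97.8% of all genes, and 5 of these 7 were DHT-listed (71.4%, 35.9 to 91.8%), beside 64.8%. In each of these classes the background share lay within the interval of the members.

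**Figure D1:**
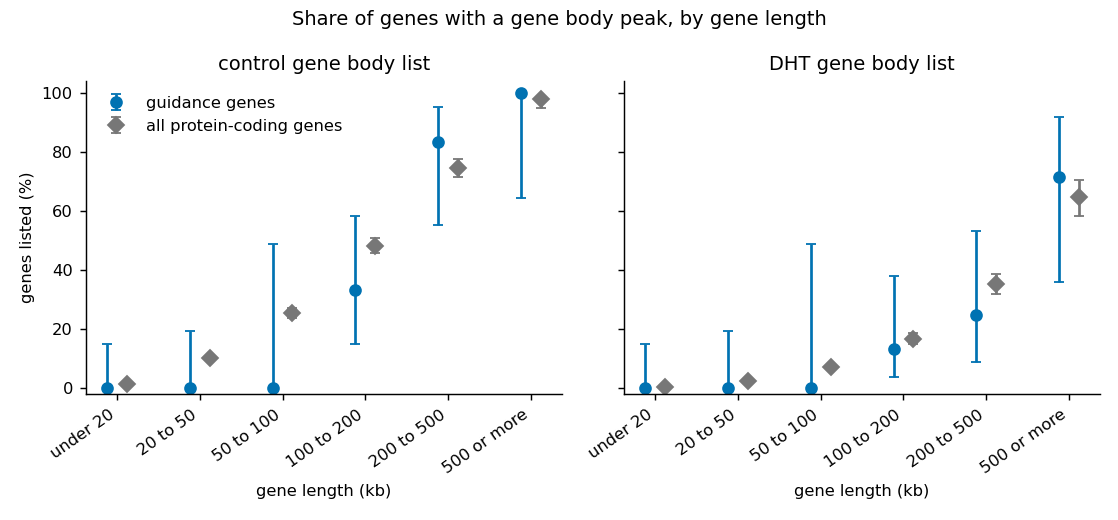
Share of genes listed with a gene body peak (%, y axis) in 6 classes of gene length (kb, x axis) for the control list (left) and the DHT list (right). Circles are guidance genes, diamonds all protein-coding genes, and bars 95% Wilson intervals; the shares of both rise with length, and no member under 100 kb is listed.

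**Figure D2:**
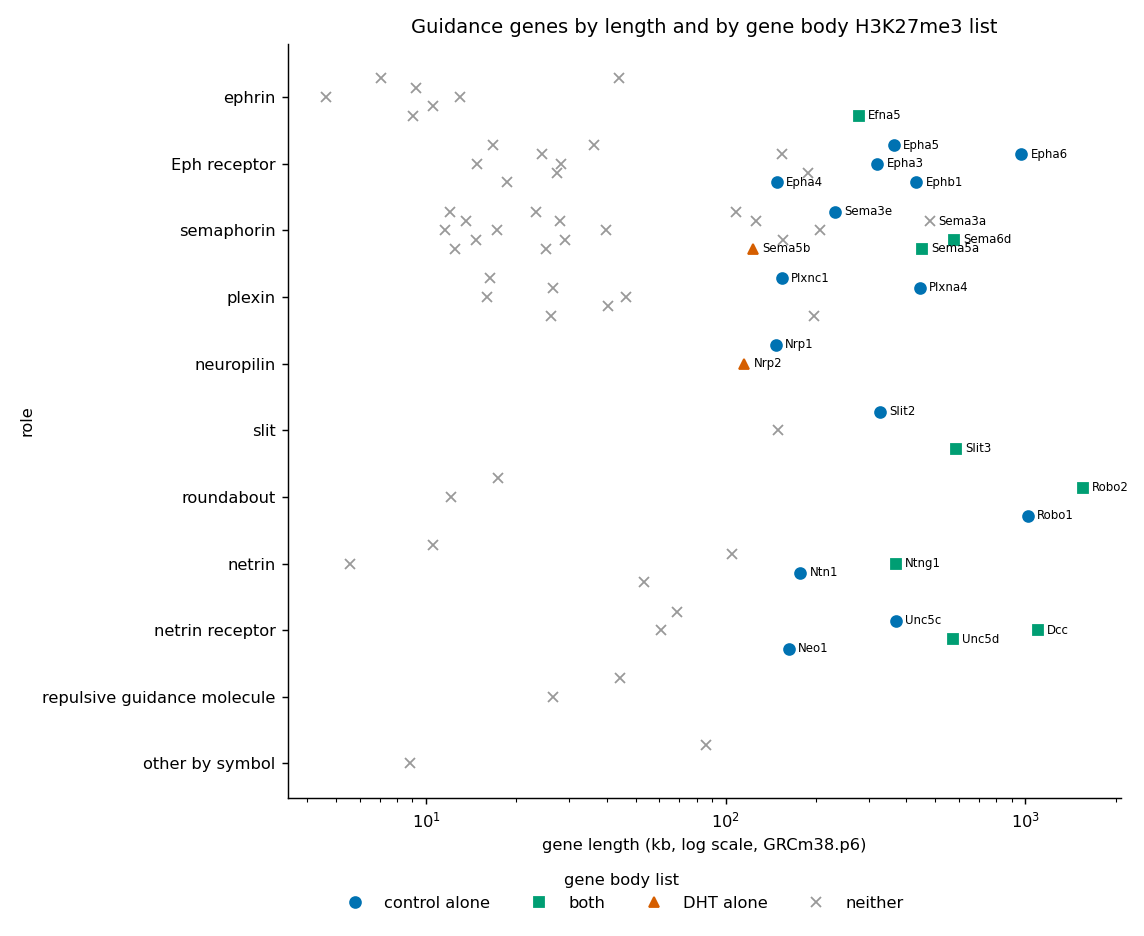
Length of each of the 76 guidance genes (kb, log scale, x axis) in rows by role (y axis; points are spread within a row for legibility). Blue circles mark genes in the control gene body list alone, green squares both lists, orange triangles the DHT list alone and grey crosses neither list; listed genes are named, as is Sema3a, the longest gene in neither list.

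Eph receptors were the role in which the control and DHT lists differed most in number. In control cells 5 of 14 Eph receptors had a gene body peak (Epha3, Epha4, Epha5, Epha6 and Ephb1), beside a length-matched count of 5.13. After DHT none of the 14 was listed, beside a length-matched count of 2.33. Had these 5 control-listed receptors stayed listed at the share of all control-listed genes in their length classes, 2.004 would have done so. For Epha6, the longest at 969.5 kb, of the 100 other protein-coding genes closest to it in length (710.6 to 1313.5 kb), 99 were control-listed and 67 DHT-listed. For Ephb1 (432.6 kb) 50 of the 100 closest genes were DHT-listed, for Epha3 (320.6 kb) 42, for Epha5 (363.1 kb) 36 and for Epha4 (147.9 kb) 17. Ephb2 (188.8 kb) and Epha7 (154.4 kb) are of a length at which 66 and 52 of the 100 closest genes were control-listed, and neither was in a list. The other 7 Eph receptors are under 100 kb. Epha5 overlaps a predicted protein-coding gene in the annotation, so a peak there could belong to either. This count was singled out after the lists had been seen and carries no test.

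The ephrins, ligands of these receptors, are compact genes with a median of 9.88 kb. Of 8, Efna5 (278.4 kb) was in both lists, and the other 7 were in neither. Of the 100 genes closest to Efna5 in length, 21 were in both lists and 49 in control alone. So the only listed ephrin kept its place after DHT, beside 0.385 at the share of its length class. No listed Eph receptor did, beside 2.004. This contrast rests on 1 ephrin, was singled out after the lists had been seen and carries no test.

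Semaphorins formed the largest group, and their number in the control list lay further below the length-matched count than that of any other role. A gap in number can be larger in a larger role. This gap was singled out after the lists had been seen and carries no test. Of 20 semaphorins 3 were control-listed (Sema6d, Sema5a and Sema3e), beside a length-matched count of 6.51, and 3 were DHT-listed (Sema6d, Sema5a and Sema5b), beside 2.90. Of the 9 semaphorins of 100 kb or more, 3 were control-listed beside a length-matched count of 5.89. The class 3 semaphorins, the secreted branch, most of which bind neuropilins, held the longest members in neither list. Sema3a spans 478.7 kb, and 93 of the 100 protein-coding genes closest in length (428.2 to 532.6 kb) were in at least 1 gene body list. Sema3d (205.8 kb) and Sema3c (155.5 kb) had 65 and 62 listed genes among their 100 closest. Sema3e (231.4 kb) was the 1 class 3 gene of 7 that was listed, in control alone, beside a length-matched count of 2.86. Sema3d and Sema3a adjoin on chromosome 5, so they are not separate in position. Both class 5 semaphorins were in the DHT list: Sema5a (451.5 kb) in both lists and Sema5b (123.1 kb) in the DHT list alone. Of the 100 genes closest to Sema5b in length, 10 were in the DHT list alone and 42 in the control list alone.

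Semaphorin receptors include plexins and neuropilins. Of 9 plexins, Plxna4 (443.7 kb) and Plxnc1 (154.2 kb) were control-listed, beside a length-matched count of 2.16, and none was DHT-listed, beside 0.807. Plxna2 (197.1 kb) was in neither list, although 71 of the 100 genes closest in length were in the control list. Nrp1 (146.9 kb) was in the control list alone, as were 38 of its 100 closest genes. Nrp2 (115.4 kb) was in the DHT list alone, as were 7 of its 100 closest genes.

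The slit and roundabout genes include the longest member, and 4 of their 5 genes of 100 kb or more were listed. Slit3 (587.1 kb) was in both lists and Slit2 (326.4 kb) in control alone, while Slit1 (149.5 kb) was in neither. Robo2 (1555.5 kb), the longest member, was in both lists and Robo1 (1020.0 kb) in control alone, while the short Robo3 and Robo4 were in neither. Robo1 and Robo2 are neighbours on chromosome 16. The slits reached 2 control-listed genes beside a length-matched count of 2.21, and the roundabouts 2 beside 1.99. After DHT each group kept 1, beside 1.17 and 1.31.

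Of 6 netrin receptors, which are long genes with a median of 265.6 kb, 4 were control-listed (Dcc, Unc5c, Unc5d and Neo1), beside a length-matched count of 3.69, and 2 were DHT-listed (Dcc and Unc5d), beside 1.96. Dcc spans 1097.6 kb, Unc5d 573.0 kb, Unc5c 369.4 kb and Neo1 161.9 kb, so the longer pair stayed listed. Of 6 netrins, Ntng1 (369.9 kb) was in both lists and Ntn1 (177.5 kb), the secreted netrin that also has a part in vascular branching, in control alone. Rgma and Rgmb, the repulsive guidance molecules, were in neither. Counting all roles, 8 of 39 ligands were control-listed beside a length-matched count of 11.9, and 6 were DHT-listed beside 5.31. Of 35 receptors and co-receptors, 14 were control-listed beside 13.9, and 4 were DHT-listed beside 6.75.

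**Figure D3:**
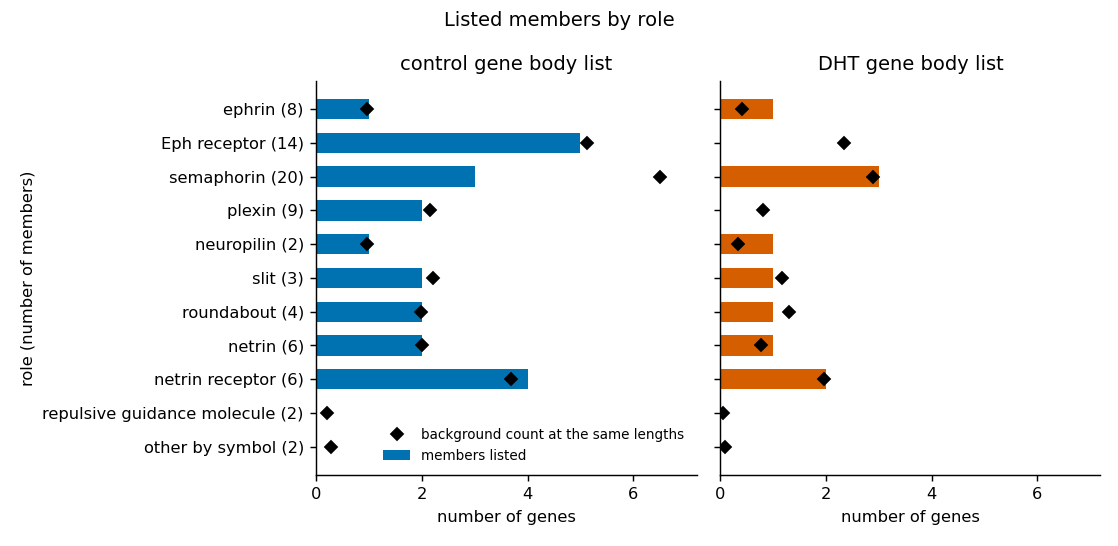
Number of guidance genes listed with a gene body peak (x axis) by role (y axis, with the number of members in brackets) in the control (left) and DHT (right) lists. Bars are members found and diamonds the count at the listed share of all protein-coding genes of the same lengths; the Eph receptor bar is 5 in control and 0 after DHT, and the semaphorin bar is 3 in both.

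The next comparison asked which control-listed guidance genes stayed in the DHT list. Of the 22, 8 stayed (36.4%, 19.7 to 57.0%), beside 22.2% of all 2852 control-listed genes. By length, none of 5 stayed in the class from 100 to 200 kb, beside 20.03% of all genes, 3 of 10 from 200 to 500 kb (30.0%, 10.8 to 60.3%), beside 38.5%, and 5 of 7 at 500 kb or more (71.4%), beside 64.9%. The 2 of 500 kb or more that did not stay were Robo1 and Epha6. Conversely, 8 of the 10 DHT-listed members (80.0%, 49.0 to 94.3%) were also control-listed, beside 60.6% of all DHT-listed genes. At the shares of their length classes 8.48 of these 10 would have been control-listed, and 9.39 of the 22 control-listed members would have stayed in the DHT list. The DHT list held 45.5% as many members as the control list, beside 36.6% over all protein-coding genes and 46.5% from the length-matched counts.

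The protein-coding genes next to listed members on the chromosome were also looked up. They are set beside listed genes at least as long as the shortest listed member, which are not otherwise matched for length. No interval or test was made. Of the 22 control-listed members, 16 (72.7%) had a control-listed protein-coding gene next to them on the chromosome, beside 48.6% of the 1335 control-listed genes at least as long as the shortest listed member. In the DHT list 3 of 10 members (30.0%) had a DHT-listed neighbour, beside 17.9%. Robo1 and Robo2 adjoin, so each counts as the other's neighbour. Of the 8 members in both lists, 6 (Robo2, Sema6d, Slit3, Unc5d, Sema5a and Ntng1) had a control-listed neighbour and no DHT-listed one, beside 33.8% of the 477 genes in both lists that are at least as long as the shortest listed member.

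Only Robo2 was in a promoter list, that of control, in which the study's promoter reached 1 kb to either side of the transcription start. No member was in the DHT promoter list. These lists held 0.612% and 0.187% of all protein-coding genes. Robo2 was thus the 1 member with both a promoter and a gene body peak in control, and its gene body peak alone was listed after DHT.

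The lists of genes with changed expression held 4 members. In the study, expression was measured by RNA-seq of separate granulosa cell pools, not in the H3K27me3 samples. Epha3 was in the list of genes upregulated after DHT that had a gene body peak (0.0959% of all genes), and its gene body peak was in the control list alone. It was also in the list of upregulated genes linked to a distal enhancer (0.269% of all genes). For that list the study required enhancer H3K27me3 to be inversely related to expression. The relation was taken across control and DHT samples together, so the group difference enters it. Slit1, in neither gene body list, was in the same upregulated enhancer list. Ntn1 was in the list of downregulated genes with a gene body peak (0.0639% of all genes) and, like Epha3, was listed for H3K27me3 in control alone. The deposited list that names Ntn1 holds 15 symbols, all of them in a gene body list, 9 in control alone, 4 in DHT alone and 2 in both. Unc5b (69.0 kb), in neither gene body list, was in the list of downregulated genes linked to an enhancer (0.142% of all genes). So of the members listed in control alone, 1 is named as upregulated and 1 as downregulated.

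The promoters of Robo2, the member with a promoter peak, and of Epha3 and Unc5b, which are named in the expression lists, are shown for their CpG dinucleotides, the bases that Polycomb-bound promoters are often rich in. RefSeq windows on GRCm38.p6 matched 65 of the 76 members. Ntn1 and Slit1, also named in the expression lists, had no window. The bases upstream of the start that lie in no annotated exon are printed 5′ to 3′ on the strand of the gene, with each CpG in capitals. The Robo2 stretch is chr16:75447444-75447543, the Epha3 stretch chr16:63864176-63864425 and the Unc5b stretch chr10:60831582-60831831, all on the minus strand. These positions belong to GRCm38.p6 and not to mm9, the build of the peaks.
Robo2: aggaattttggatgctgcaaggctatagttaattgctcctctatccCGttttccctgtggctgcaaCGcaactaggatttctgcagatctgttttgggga
Epha3: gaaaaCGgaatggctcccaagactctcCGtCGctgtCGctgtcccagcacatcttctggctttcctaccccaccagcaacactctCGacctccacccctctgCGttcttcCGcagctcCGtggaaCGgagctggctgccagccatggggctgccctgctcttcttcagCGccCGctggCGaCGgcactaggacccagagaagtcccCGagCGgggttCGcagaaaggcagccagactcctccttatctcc
Unc5b: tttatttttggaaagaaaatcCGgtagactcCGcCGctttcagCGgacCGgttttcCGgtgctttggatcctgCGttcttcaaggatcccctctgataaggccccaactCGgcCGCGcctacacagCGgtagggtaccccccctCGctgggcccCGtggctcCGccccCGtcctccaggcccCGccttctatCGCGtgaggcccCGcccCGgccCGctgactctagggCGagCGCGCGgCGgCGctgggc
The Robo2 stretch holds 2 CpG in 100 bases, the Epha3 stretch 16 in 250 and the Unc5b stretch 27 in 250. The Robo2 stretch belongs to 1 of its start sites and ends 150 bases before it, whereas the Epha3 and Unc5b stretches reach the start. At the other Robo2 start sites no upstream base of the window lay outside an annotated exon. These CpG numbers are therefore not from like positions. Robo2 has 3 RefSeq windows of 300 bases, with 9, 5 and 17 CpG, so CpG number differed among its start sites, and which of them the promoter peak touched is not given in the list.

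Over whole windows of 300 bases, 250 before the start and 50 after it, the 65 members had a median of 21 CpG per gene, beside 13 over 17492 protein-coding genes. The 20 listed members with a window had a median of 23.5 (9 to 54) and the 45 in neither list 21 (2 to 56), and the ranges overlapped. By list, the median was 17.5 CpG for the 12 control-alone members, 25.5 for the 6 in both lists and 32 for the 2 in the DHT list alone. Epha3 had 18, Robo2 9 as the median of its windows, and Unc5b 36. Among long genes in neither list, Sema3a had 2 CpG, Sema3d 8, Plxna2 25, Ephb2 24 and Sema3c 42, so unlisted long members had both CpG-poor and CpG-rich promoters. Over all protein-coding genes the listed had a median of 17 and the unlisted 12.

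**Figure D4:**
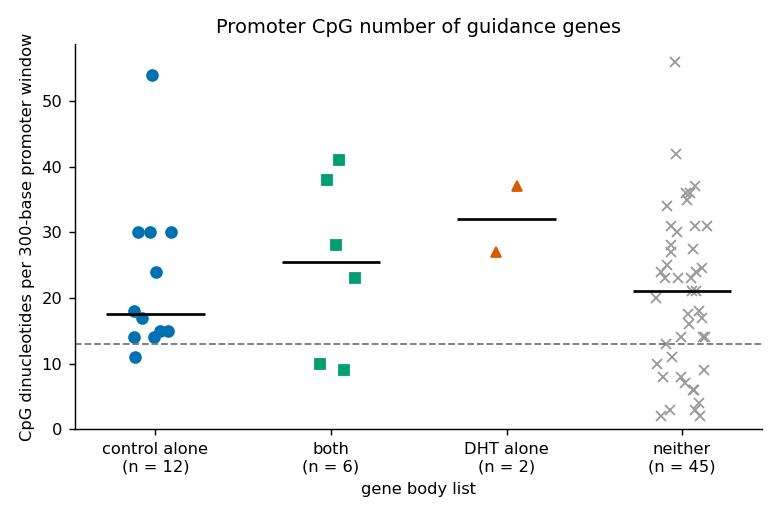
CpG dinucleotides per 300-base promoter window (y axis; 1 point per gene, the median over its windows) for guidance genes by gene body list (x axis). Black bars are medians (17.5, 25.5, 32 and 21) and the dashed line is the median of all protein-coding genes, 13; points are spread sideways for legibility.

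Motifs were searched on both strands of all windows. The androgen response half-site AGAACA was in 8 of 83 member windows (9.64%), beside 16.2% of 21263 windows of protein-coding genes. A gene can have several windows, and the 8 came from 5 genes (Sema4d, Sema6b, Sema6d, Plxna3 and Plxnd1), or 7.69% of 65, beside 18.5% of 17492 genes. Member promoters had a median GC share of 65.3% per gene, beside 56.3% over all genes. The half-site is mostly A, windows were not matched for base composition, and its bearing on these shares was not tested. The full element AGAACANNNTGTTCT, which contains the half-site, was in none of the member windows and in 2 of all windows (0.00941%). The hypoxia response core, ACGTG or GCGTG, was in 42 member windows (50.6%), beside 49.3% of all. None of the Robo2, Epha3 and Unc5b windows held the half-site. A match is a description of letters and not a bound site.

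The intracellular partners of these receptors were looked up in the same way. Of 53 effectors, 22 were in the control gene body list beside a length-matched count of 24.1, 11 in the DHT list beside 10.8, and 8 in both. The 5 longest listed were Grip1, a scaffold that binds ephrin-B (634.0 kb, control alone), Kalrn, a guanine nucleotide exchange factor (604.2 kb, both), and the Rac activators Dock2 (557.1 kb, both), Dock1 (503.0 kb, both) and Dock4 (400.9 kb, control alone). Dpysl5, a collapsin response mediator, was the 1 effector in an expression list, that of upregulated genes linked to an enhancer. Of 26 other guidance molecules and co-receptors, 7 were control-listed beside 7.60 and 5 DHT-listed beside 3.14. The adhesion molecules Dscam, Nrcam and Chl1 and the glypican Gpc3 were in both lists and Lingo1 in the DHT list alone. Rtn4r, the Nogo receptor, was in the upregulated enhancer list.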

How the data were processed

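H3K27me3 ChIP-seq of 3 control and 3 DHT samples was analysed from deposited gene lists. The authors mapped reads to mm9 with Bowtie2 2.3.4, kept uniquely mapped reads and called broad peaks with MACS2 2.1.1, with a q-value limit of 0.05. The step that merged the 3 replicates into 1 list is not given in the sources used here. The deposited lists hold gene symbols without values: genes with a peak in the body or within 1 kb of the start, and genes up- or downregulated after DHT with a gene body peak or a linked enhancer (correlation below -0.4). The deposited peak intervals were not used, because an mm9 annotation was not used here.

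Symbols were matched to RefSeq protein-coding genes of GRCm38.p6, which gave names, lengths and neighbours. Of 3144 control and 1146 DHT gene body symbols, 3106 and 1132 matched exactly, and 33 and 11 by an older symbol. Gene length was the annotated span. The length-matched count summed, over members, the share of all protein-coding genes listed in 6 classes of length (edges 20, 50, 100, 200 and 500 kb). The 100 genes closest in length were chosen on the log scale. Intervals are 95% Wilson intervals. No test of significance was run, since each group is 1 list.

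Members and lists were chosen with earlier results of these data known. Named genes were every member in a list, the 5 longest in no gene body list and, of effectors and other guidance genes, the 5 longest in a gene body list and each one in another list. Other genes in no list that the text names, such as Epha7, Robo3, Robo4, Rgma, Rgmb, Unc5cl and Unc50, were chosen after their values were seen. Alternatives left out members or changed the length classes or background. Python 3.11.15, pandas 2.3.3, numpy 2.4.6, scipy 1.17.1 and matplotlib 3.10.9 were used.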

Additional observations from a re-analysis of the deposited data

How the results depend on the processing

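Under 39 alternatives to 8 results, 7 of them added after seeing the data, every value stayed within 1.5 times its reported one. That limit is wider than the gaps between the 5 counts of members and their length-matched counts, so it does not bear on those gaps. The 5 counts of members did not move when symbols were matched exactly. They could not move when Unc5cl, Unc5cl with Unc50, or members under 50 kb were left out, since no listed member is among these. Without the 7 members that overlap another protein-coding gene, Epha5 dropped out, leaving 21 control-listed and 13 control-alone members. The length-matched count ranged from 25.8 to 27.3 for the control list and from 11.4 to 12.9 for the DHT list with 20 or 50 equal classes, without receptor families and predicted genes, with the span of the longest curated transcript and with members left out of the background. No paired analysis was possible because each group has 1 pooled list without replicate numbers, and leaving out a replicate was not run for the same reason. A listing gives no peak height or depth, and lengths come from another build than the peaks.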
